A study of Mus musculus with 9 samples.

Results

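The type IV collagens are encoded in the mouse by 6 genes, Col4a1 to Col4a6, and are described here in D2A1-d breast carcinoma cells with and without knockdown of Med4. The 6 genes were taken by symbol from 55335 gene identifiers counted in every library. They were chosen because Col4a1 and Col4a2 were already known to be lower in the knockdown cells than in control cells, so the levels and fold changes of the 6 genes are given as a description, without a test. D2A1-d is an established mouse cell line of breast origin, and Med4 is a gene for part of Mediator, through which transcription factors act on RNA polymerase II. Knockdown cells were transduced with a short hairpin RNA that targets Med4, either shMed4 #4 or shMed4 #1, and control cells with a non-targeting control hairpin (NTC), whose genotype the labels give as wild type. All cells were kept in the same serum-containing medium and are labelled as untreated. Total RNA was sequenced on a BGISEQ-500 instrument from 3 libraries per group, which the labels number as biological replicates. The labels say neither whether the replicates were transduced separately nor whether each line is 1 clone, so a p-value here reflects only how far these libraries spread.

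Type IV collagen is the network-forming collagen of basement membranes, the thin sheets of matrix that underlie epithelia and endothelia and surround muscle, fat and nerve. Its chains carry long runs of Gly-X-Y repeats with interruptions and end in a non-collagenous domain, and they assemble inside the cell as trimers. The products of Col4a1 and Col4a2 form the trimer found in nearly all basement membranes. The products of Col4a3, Col4a4 and Col4a5 form a trimer best known from the kidney glomerulus, and Col4a5 and Col4a6 contribute to a further trimer. The genes lie in head-to-head pairs on 3 chromosomes, each pair reading outward from a shared or closely spaced promoter. In breast tissue, a breach of this sheet separates invasive carcinoma from carcinoma in situ.

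Col4a1 and Col4a2 stood far lower in the cells of both hairpins than in NTC cells, and lower with shMed4 #4 than with shMed4 #1. Col4a1 was at 12.3% of its NTC level with shMed4 #4 and at 28.2% with shMed4 #1, and Col4a2 was at 12.7% with shMed4 #4 and at 33.4% with shMed4 #1. Col4a5, the remaining chain with substantial expression, was within 1.25-fold of its NTC level with either hairpin, slightly lower with shMed4 #4 and slightly higher with shMed4 #1. Reads of Col4a3, Col4a4 and Col4a6 were few in all 9 libraries. Type IV collagen reads of the knockdown cells were fewer in all and held a larger share of Col4a5.

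Libraries held 7572114 to 8582235 reads assigned to genes. Med4 itself had 7.21 ± 0.98 CPM (read counts scaled to library size) in shMed4 #4 libraries, 4.53 ± 0.39 CPM in shMed4 #1 libraries and 27.4 ± 2.2 CPM in NTC libraries (SD, n = 3 each). Its log2 fold change was -1.92 with shMed4 #4 (SE 0.13, adjusted p = 8.44e-16 in edgeR's quasi-likelihood test over 14335 genes) and -2.59 with shMed4 #1 (SE 0.14, edgeR adjusted p = 3.92e-18). Med4 was thus higher with shMed4 #4 than with shMed4 #1, by 0.67 on the log2 scale (SE 0.18, edgeR adjusted p = 0.00401), whereas Col4a1 and Col4a2 were lower with shMed4 #4. Of markers of epithelial cells, Cdh1 (E-cadherin) had no read in any library and Epcam had 1 read in all, although the cells are labelled as breast carcinoma. The 10 markers of mammary epithelium summed to 178 to 205 CPM with shMed4 #4, 95.6 to 113 CPM with shMed4 #1 and 24.4 to 25.9 CPM in NTC libraries, with most of it from the keratins Krt8 and Krt18. Krt18 averaged 133 CPM with shMed4 #4, 80.8 CPM with shMed4 #1 and 20.4 CPM in NTC libraries. All 6 mesenchymal markers had reads, and together they reached 4393 to 5024 CPM with shMed4 #4, 4754 to 4931 CPM with shMed4 #1 and 4730 to 5110 CPM in NTC libraries. That sum is mostly Fn1 (fibronectin) and covers opposite moves, with 3 of 5 tested markers higher and 2 lower with shMed4 #4 than in NTC cells, and 2 higher and 1 lower with shMed4 #1 (edgeR, adjusted p under 0.05). By the same test, 27.8% of all genes were higher and 27.3% lower with shMed4 #4. With shMed4 #1, 21.8% of all genes were higher and 19.8% lower. Vim (vimentin) averaged 1101 ± 33 CPM with shMed4 #4, 1501 ± 84 CPM with shMed4 #1 and 1950 ± 25 CPM in NTC cells, and the transcription factor Prrx1 averaged 66.8 ± 5.8 CPM with shMed4 #4, 48.6 ± 2.4 CPM with shMed4 #1 and 8.52 ± 2.4 CPM in NTC cells (SD, n = 3 each). Markers of endothelium, which makes much type IV collagen in tissues, summed to at most 4.40 CPM in any library, with Tie1, Emcn, Cldn5 and Erg at 0 in all 9. The sums were 2.07 to 3.23 CPM with shMed4 #4, 2.73 to 4.40 CPM with shMed4 #1 and 1.42 to 2.11 CPM in NTC libraries. Cdh5, the only one tested, was called higher with both hairpins. It averaged 2.26 CPM with shMed4 #4, 2.47 CPM with shMed4 #1 and 0.832 CPM in NTC cells. Markers of pericytes and smooth muscle summed to 119 to 126 CPM with shMed4 #4, 118 to 121 CPM with shMed4 #1 and 127 to 150 CPM in NTC libraries, with Kcnj8 and Abcc9 at 0. Most of this sum came from Pdgfrb, which averaged 109 CPM with shMed4 #4, 110 CPM with shMed4 #1 and 137 CPM in NTC cells. Des ran the other way, at 12.1 CPM with shMed4 #4, 7.68 CPM with shMed4 #1 and 3.97 CPM in NTC cells. Leukocyte markers summed to 13.9 to 15.2 CPM with shMed4 #4, 12.6 to 14.2 CPM with shMed4 #1 and 15.2 to 16.4 CPM in NTC libraries, nearly all from Csf1r and Cd68. The part of these marker levels in the collagen results was not tested.

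Col4a1 (ENSMUSG00000031502) lies on chromosome 8 from 11198423 to 11312826 on the minus strand of GRCm38, and Col4a2 (ENSMUSG00000031503) lies next to it on the plus strand from 11312805 to 11449287. Their annotated start sites are 21 bases apart, and their first exons share 22 bases. Col4a4 and Col4a3 form a pair on chromosome 1 with start sites 72 bases apart, and Col4a6 and Col4a5 a pair on chromosome X with start sites 1309 bases apart. RefSeq promoter windows on GRCm38.p6, which run from 250 bases before to 50 bases after the gene's start, were available for 5 of the 6 genes, all but Col4a3. The 300-base windows of Col4a1 (chr8:11312777-11313076, minus strand) and of Col4a5 (chrX:141475169-141475468, plus strand) are printed here because Col4a1 was much lower in knockdown cells while Col4a5 differed little. Capitals mark matches, on either strand, to the CCAAT box (CCAAT), the GC box (GGGCGG) and a CT-rich run (CCCTCCCC).
Col4a1: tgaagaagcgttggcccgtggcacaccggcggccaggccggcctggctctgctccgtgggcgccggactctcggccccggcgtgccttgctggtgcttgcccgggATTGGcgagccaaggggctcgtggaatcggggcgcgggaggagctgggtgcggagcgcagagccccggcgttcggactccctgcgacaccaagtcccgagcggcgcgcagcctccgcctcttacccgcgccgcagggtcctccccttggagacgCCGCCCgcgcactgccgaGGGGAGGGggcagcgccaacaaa
Col4a5: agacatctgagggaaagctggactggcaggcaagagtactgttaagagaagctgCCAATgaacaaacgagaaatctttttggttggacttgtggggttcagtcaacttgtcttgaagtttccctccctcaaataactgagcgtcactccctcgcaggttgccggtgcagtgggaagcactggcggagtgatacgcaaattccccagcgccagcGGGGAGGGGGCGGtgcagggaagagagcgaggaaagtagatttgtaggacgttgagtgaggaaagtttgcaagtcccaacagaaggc
The Col4a1 window held 74.0% G and C and 37 CpG sites, against 52.7% and 11 CpG sites in the Col4a5 window, and the median over 32544 mouse promoter windows was 53.0% G and C. The Col4a2 window held 73.7% G and C and shares 78 bases with that of Col4a1. In the Col4a1 window the CCAAT box lies on the strand opposite to the gene, 145 bases before the start, and the GC box and the CT-rich run follow the start. In the Col4a5 window the CCAAT box lies 196 bases before the start, and the CT-rich run and the GC box, which share 1 base, lie 37 and 30 bases before it. These distances are from the RefSeq start of Col4a5. The GENCODE start, at 141475385, lies further upstream, and the GC box would follow that start. The Col4a2 window held the same 3 motifs, with the CCAAT box 32 bases and the CT-rich run 13 bases before the start. The CT-rich run and the GC box of the Col4a1 window lie in the 78 shared bases. They are the same bases as the CT-rich run and a GC box of the Col4a2 window, read on the other strand. Over all windows, 37.4% held CCAAT, 35.9% GGGCGG and 10.8% CCCTCCCC on either strand, and 1.95% held all of them. None of the 5 windows held TATAAA, which 13.6% of all windows held. These matches describe the letters of the windows only. Col4a1, Col4a2 and Col4a5 each had all 3 motifs, with the shared sites counted for both Col4a1 and Col4a2.

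Col4a1, the more abundant chain gene in NTC cells, had 559, 618 and 572 reads in the 3 shMed4 #4 libraries, 1357, 1350 and 1412 reads in the 3 shMed4 #1 libraries and 4691, 4582 and 4720 reads in the 3 NTC libraries. Every shMed4 #4 library was below every shMed4 #1 library, and every shMed4 #1 library was below every NTC library. After scaling, Col4a1 averaged 71.7 ± 4.5 CPM with shMed4 #4, 165 ± 3.0 CPM with shMed4 #1 and 585 ± 6.4 CPM in NTC cells (SD, n = 3 each). The log2 fold change against NTC was -3.03 with shMed4 #4 (SE 0.06), an 8.16-fold lower level, and -1.82 with shMed4 #1 (SE 0.05), a 3.54-fold lower level. Between the hairpins, Col4a1 was 2.30-fold lower with shMed4 #4 than with shMed4 #1, a log2 difference of -1.20 (SE 0.06). Of all 14335 genes, 63 had a lower log2 fold change than Col4a1 with shMed4 #4 and 31 with shMed4 #1. Both hairpin comparisons share the same 3 NTC libraries, so their values are set side by side and are not independent. In bulk RNA, fewer cells that make a transcript and less of it per cell cannot be told apart.

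As a background for these groups that do not overlap, 29.8% of all genes tested had every shMed4 #4 library below every NTC library, 23.9% had every shMed4 #1 library below every NTC library, and 20.2% had every shMed4 #4 library below every shMed4 #1 library. A log2 fold change below -1 was reached by 6.62% of genes with shMed4 #4 and by 2.57% with shMed4 #1 against NTC, and by 3.19% of genes between the hairpins. Since the chains were chosen on these contrasts, the shares are given for scale.

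**Figure D1:**
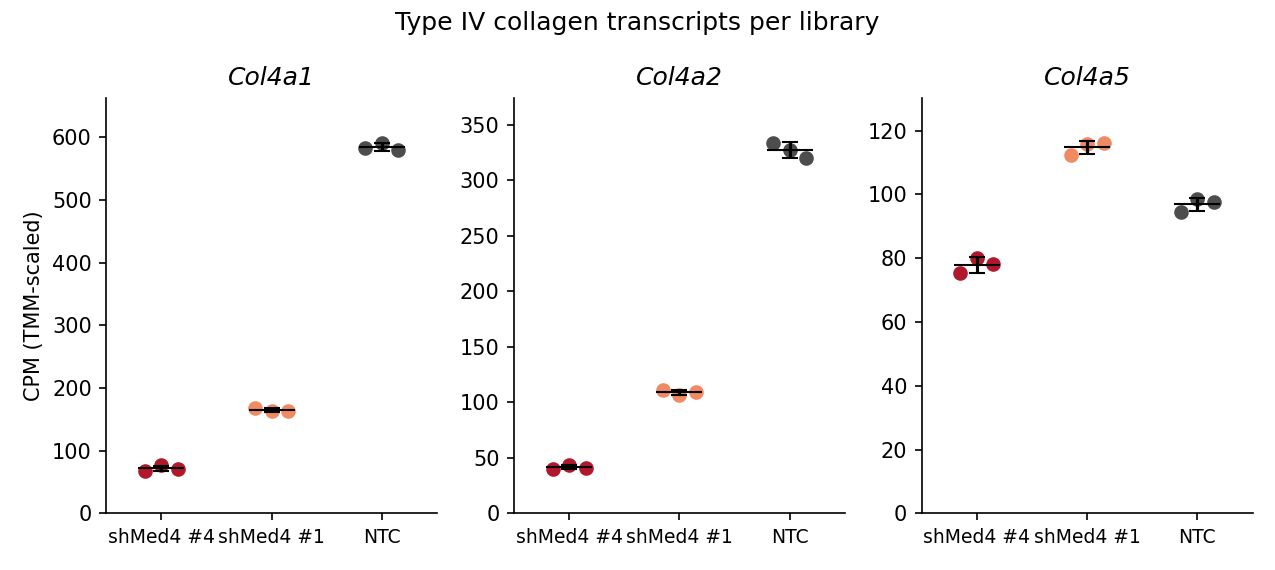
CPM of each type IV collagen gene that passed the filter (vertical axis, linear from 0, with its own range in each panel) in the 9 libraries, with shMed4 #4, shMed4 #1 and NTC from left to right; points are libraries and bars show the mean and SD of 3. Col4a1 averaged 71.7 CPM with shMed4 #4, 165 CPM with shMed4 #1 and 585 CPM in NTC cells, whereas Col4a5 lay between 75.3 and 116 CPM in all libraries.

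Col4a2, whose product pairs with that of Col4a1 in the common trimer, had 327, 350 and 334 reads with shMed4 #4, 895, 880 and 949 reads with shMed4 #1 and 2687, 2537 and 2607 reads in NTC libraries. The 3 groups were separate, in the same order as for Col4a1. Col4a2 averaged 41.4 ± 1.8 CPM with shMed4 #4, 109 ± 2.4 CPM with shMed4 #1 and 327 ± 7.1 CPM in NTC cells (SD, n = 3 each). Its log2 fold change against NTC was -2.98 with shMed4 #4 (SE 0.06), a 7.90-fold lower level, and -1.58 with shMed4 #1 (SE 0.05), a 3.00-fold lower level. Between the hairpins, the log2 difference was -1.40 (SE 0.06), a 2.64-fold lower level with shMed4 #4. Fold changes lower than that of Col4a2 were found for 68 genes with shMed4 #4 and for 80 genes with shMed4 #1. The antisense transcript Gm15419 shares 43 bases with Col4a2, 0.65% of its exon length, and had 207 reads in all 9 libraries, against 11566 for Col4a2.

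The Col4a1 to Col4a2 read ratio needs no scaling between libraries. It was 1.71, 1.77 and 1.71 in the shMed4 #4 libraries, 1.52, 1.53 and 1.49 in the shMed4 #1 libraries and 1.75, 1.81 and 1.81 in the NTC libraries. The shMed4 #1 libraries were all below the libraries of the other groups, while shMed4 #4 and NTC libraries overlapped. Counting error alone gave a 95% interval of 1.49 to 1.97 in the first shMed4 #4 library, 1.39 to 1.65 in the first shMed4 #1 library and 1.66 to 1.83 in the first NTC library, from the exact binomial share of Col4a1 reads. These intervals cover counting error only. The mean ratio was 1.73 ± 0.032 with shMed4 #4, 1.51 ± 0.023 with shMed4 #1 and 1.79 ± 0.036 in NTC cells (SD, n = 3 each). Per kilobase of exon the ratios were 1.53 with shMed4 #4, 1.34 with shMed4 #1 and 1.59 in NTC cells, with Col4a1 above Col4a2 in each group.

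Against NTC, the mean log2 ratio differed by -0.05 with shMed4 #4 (SD 0.039) and by -0.24 with shMed4 #1 (SD 0.037), where the ratio was 0.846 of that in NTC cells. Each SD in this paragraph combines the spread of single libraries in both groups, and is not an error of the mean difference. Between the hairpins the ratio was 1.14-fold higher with shMed4 #4, a log2 difference of 0.19 (SD 0.034). Since both genes were chosen with these contrasts known, the ratio was not tested. Col4a1 was thus the more strongly lowered chain with shMed4 #1, at 28.2% of NTC against 33.4% for Col4a2, while with shMed4 #4 Col4a1 stood at 12.3% of NTC and Col4a2 at 12.7%.

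**Figure D2:**
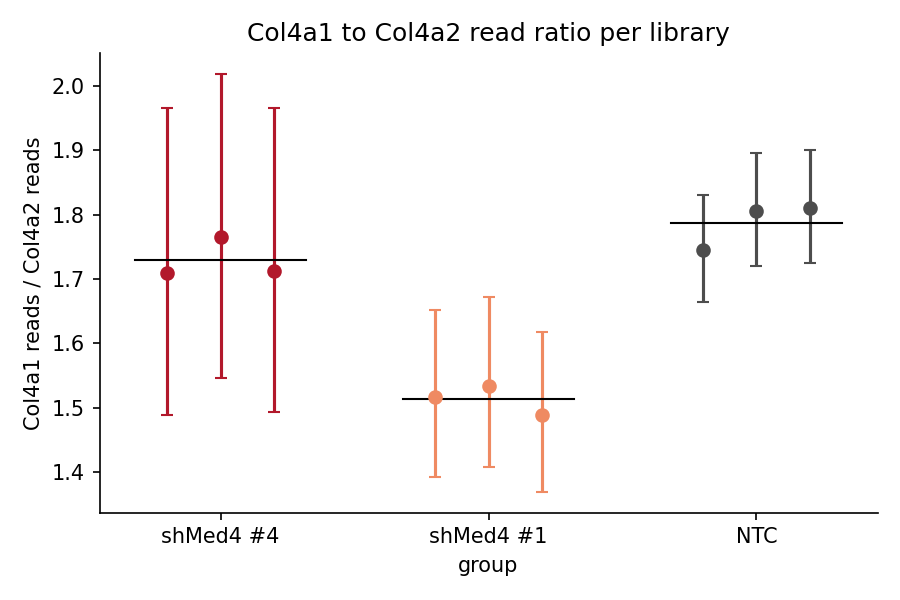
Ratio of Col4a1 reads to Col4a2 reads (vertical axis, no unit) in each library, with shMed4 #4, shMed4 #1 and NTC from left to right; points are libraries with exact 95% binomial intervals and the line is the group mean, on an axis that does not start at 0. The shMed4 #1 libraries lie between 1.49 and 1.53, below all libraries of the other groups.

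Col4a5 (ENSMUSG00000031274, chromosome X, 141475385 to 141689234, plus strand) encodes the chain that takes part in the kidney-type trimer. It had 617, 644 and 639 reads with shMed4 #4, 904, 956 and 1005 reads with shMed4 #1 and 760, 763 and 796 reads in NTC libraries. The shMed4 #4 libraries were all below the NTC libraries, and the shMed4 #1 libraries were all above them. For scale, 29.8% of all genes tested had every shMed4 #4 library below every NTC library and 25.2% had every shMed4 #1 library above every NTC library. Col4a5 averaged 77.8 ± 2.4 CPM with shMed4 #4, 115 ± 2.1 CPM with shMed4 #1 and 96.9 ± 2.1 CPM in NTC cells (SD, n = 3 each). The log2 fold change against NTC was -0.32 with shMed4 #4 (SE 0.06) and 0.24 with shMed4 #1 (SE 0.06), that is 80.3% of the NTC level with shMed4 #4 and 118% with shMed4 #1. Between the hairpins the log2 difference was -0.56 (SE 0.06), which places Col4a5 with shMed4 #4 at 67.8% of its level with shMed4 #1. The median log2 fold change of all genes was -0.01 with either hairpin, so these values are relative to a scale that is centred near 0.

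Col4a3, Col4a4 and Col4a6 did not pass the filter on low counts, so 3 of the 6 genes could be fitted. Col4a3 (ENSMUSG00000079465) had 0, 3 and 4 reads with shMed4 #4, 3, 5 and 6 with shMed4 #1 and 4, 1 and 4 in NTC libraries, 30 in all. Col4a4 (ENSMUSG00000067158), its neighbour in the pair, had 0 reads in all 3 shMed4 #4 libraries, 1, 1 and 0 with shMed4 #1 and 3, 0 and 0 in NTC libraries. Col4a6 (ENSMUSG00000031273), the partner of Col4a5, had 2, 1 and 0 reads with shMed4 #4, 0, 0 and 1 with shMed4 #1 and 3, 2 and 2 in NTC libraries. A count of 0 allows up to 3 reads, which was 0.350 to 0.396 CPM in a single library, so differences between groups were not detectable for these chains at this depth. Col4a3 overlaps the annotated transcript C430014B12Rik on the other strand over 5.65% of its exon length, and reads of both strands are not told apart here. The Col4a5 and Col4a6 pair was thus read almost entirely from Col4a5, while both genes of the Col4a1 and Col4a2 pair had at least 327 reads in every library.

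Levels of different chains are compared as RPKM, that is CPM per kilobase of exon. In shMed4 #4 cells, Col4a5 had the highest level at 11.6 ± 0.36 RPKM, followed by Col4a1 at 9.60 ± 0.60 and Col4a2 at 6.26 ± 0.28. In shMed4 #1 cells, Col4a1 led at 22.1 ± 0.41 RPKM, followed by Col4a5 at 17.1 ± 0.32 and Col4a2 at 16.5 ± 0.37. In NTC cells, the order was Col4a1 at 78.4 ± 0.85 RPKM, Col4a2 at 49.4 ± 1.1 and Col4a5 at 14.4 ± 0.32 (SD, n = 3 in each group). Neighbours in each order differed by more than the spread between libraries, with the exception of Col4a5 and Col4a2 in shMed4 #1 cells, whose libraries overlapped. Ranked by the same measure among 14328 tested genes with a length, Col4a1 stood at place 5720 with shMed4 #4, 2632 with shMed4 #1 and 526 in NTC cells, and Col4a2 at 7501 with shMed4 #4, 3582 with shMed4 #1 and 937 in NTC cells. The place of Col4a5 was 4932 with shMed4 #4, 3429 with shMed4 #1 and 4010 in NTC cells.

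All 6 chains together had 191 ± 8.6 CPM with shMed4 #4, 390 ± 3.3 CPM with shMed4 #1 and 1009.8 ± 10.8 CPM in NTC cells (SD, n = 3 each). By reads per kilobase, Col4a5 made up 42.2% ± 0.74 of type IV collagen with shMed4 #4, 30.6% ± 0.75 with shMed4 #1 and 10.1% ± 0.26 in NTC cells. Col4a1 made up 34.9% with shMed4 #4, 39.7% with shMed4 #1 and 55.1% in NTC cells, and Col4a2 22.8% with shMed4 #4, 29.6% with shMed4 #1 and 34.7% in NTC cells. Col4a5 was thus the chain with the largest share in shMed4 #4 cells and the smallest of the 3 expressed chains in NTC cells. Counted without length, Col4a5 held 41.0%, 39.9% and 41.3% of type IV collagen reads in the shMed4 #4 libraries, 28.6%, 30.0% and 29.8% in the shMed4 #1 libraries and 9.33%, 9.68% and 9.79% in the NTC libraries. The exact binomial 95% interval was 38.5 to 43.5% for the first shMed4 #4 library, 27.0 to 30.2% for the first shMed4 #1 library and 8.70 to 9.98% for the first NTC library, again for counting error only. The larger share of Col4a5 with shMed4 #4 follows from the lower Col4a1 and Col4a2 by which the genes were chosen. Col4a5 itself was at 80.3% of its NTC level there. With shMed4 #1, where Col4a5 was at 118% of its NTC level, its larger share follows from them in part. Of the reads of all 44 collagen genes, the type IV chains made up 5.25% ± 0.090 with shMed4 #4, 10.1% ± 0.11 with shMed4 #1 and 25.8% ± 0.71 in NTC cells. The summed reads of all collagens were 28108 to 31154 with shMed4 #4, 31285 to 33758 with shMed4 #1 and 30595 to 31689 in NTC libraries.

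**Figure D3:**
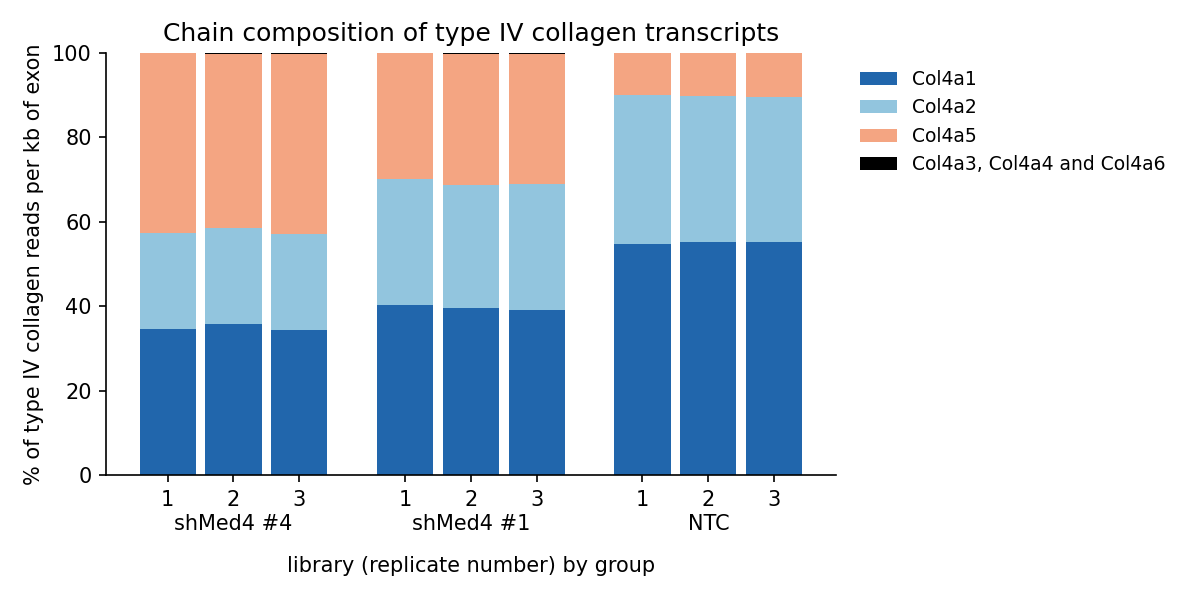
Share of each chain in the type IV collagen reads per kilobase of exon (vertical axis, %), with 1 stacked bar per library and shMed4 #4, shMed4 #1 and NTC from left to right. The share of Col4a5 was 42.2% with shMed4 #4, 30.6% with shMed4 #1 and 10.1% in NTC cells.

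Only 1 other tested gene overlaps the pair. Gm15419, an annotated antisense transcript inside Col4a2 (11399186 to 11417892, minus strand), had 5, 2 and 3 reads with shMed4 #4, 20, 13 and 21 reads with shMed4 #1 and 43, 50 and 50 reads in NTC libraries. It was lower in the same order of groups as the pair, with log2 fold changes of -3.82 with shMed4 #4 (SE 0.34) and -1.46 with shMed4 #1 (SE 0.24). Only 43 of its 743 exon bases are also exon of Col4a2, and the rest lie in introns of Col4a2. Since the strand setting is not known, intron reads of Col4a2 and reads of Gm15419 cannot be told apart. The values of Gm15419 are therefore a description and no test of a separate gene.

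The genes outside the pair had log2 fold changes on both sides of 0. The nearest 2 on each side were all below 0 with both hairpins, though not all passed the test. The nearest 10 tested genes on each side reached as far as 6556 kb beyond Col4a1 and 1308 kb beyond Col4a2. Of the 20 tested genes nearest to the pair that do not overlap it, 10 on each side, 9 rose and 2 fell with shMed4 #4 against NTC, and 4 rose and 3 fell with shMed4 #1 (edgeR, adjusted p under 0.05). Over all genes tested, 27.8% rose and 27.3% fell with shMed4 #4, and 21.8% rose and 19.8% fell with shMed4 #1. The log2 fold changes of the 20 ran from -1.37 to 1.84 with a median of 0.13 for shMed4 #4, and from -0.90 to 1.28 with a median of 0.06 for shMed4 #1, where Col4a1 had -3.03 with shMed4 #4 and -1.82 with shMed4 #1. The nearest of them, Rab20, a small GTPase 4.23 kb away, had log2 fold changes of -0.23 with shMed4 #4 (SE 0.29, edgeR adjusted p = 0.527) and -0.80 with shMed4 #1 (SE 0.31, edgeR adjusted p = 0.0378). On the other side, the noncoding 9530052E02Rik had -0.78 with shMed4 #4 (SE 0.30, edgeR adjusted p = 0.025) and -0.85 with shMed4 #1 (SE 0.30, edgeR adjusted p = 0.0207), and Irs2, an adaptor of the insulin receptor, had -0.04 with shMed4 #4 (SE 0.07, edgeR adjusted p = 0.648) and -0.30 with shMed4 #1 (SE 0.07, edgeR adjusted p = 0.000627). Over 25 genes on each side, 17 rose and 4 fell with shMed4 #4, and 6 rose and 6 fell with shMed4 #1. E230013L22Rik, which shares 25.6% of the exon length of Rab20 on the other strand, had -0.37 with shMed4 #4 (SE 0.34, edgeR adjusted p = 0.372) and -0.49 with shMed4 #1 (SE 0.35, edgeR adjusted p = 0.268). The calls of Rab20 with shMed4 #1 and of 9530052E02Rik with both hairpins were lost in DESeq2 (adjusted p = 0.11, 0.0916 and 0.0834). This leaves 1 gene that fell with shMed4 #4 and a different 1 that fell with shMed4 #1. The call of Rab20 was also lost with no filter beyond 1 read. With shMed4 #4, Rab20 ran from -0.42 without NTC library 1 to -0.05 without NTC library 2, and E230013L22Rik from -0.57 without NTC library 1 to -0.17 without NTC library 3; with shMed4 #1, E230013L22Rik was at -0.29 without NTC library 3. The count that fell was also 1 with shMed4 #4 without NTC library 1 or 2 or without shMed4 #4 library 1 or 3, and 1 with shMed4 #1 without NTC library 2 or without shMed4 #1 library 1 or 3.

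**Figure D4:**
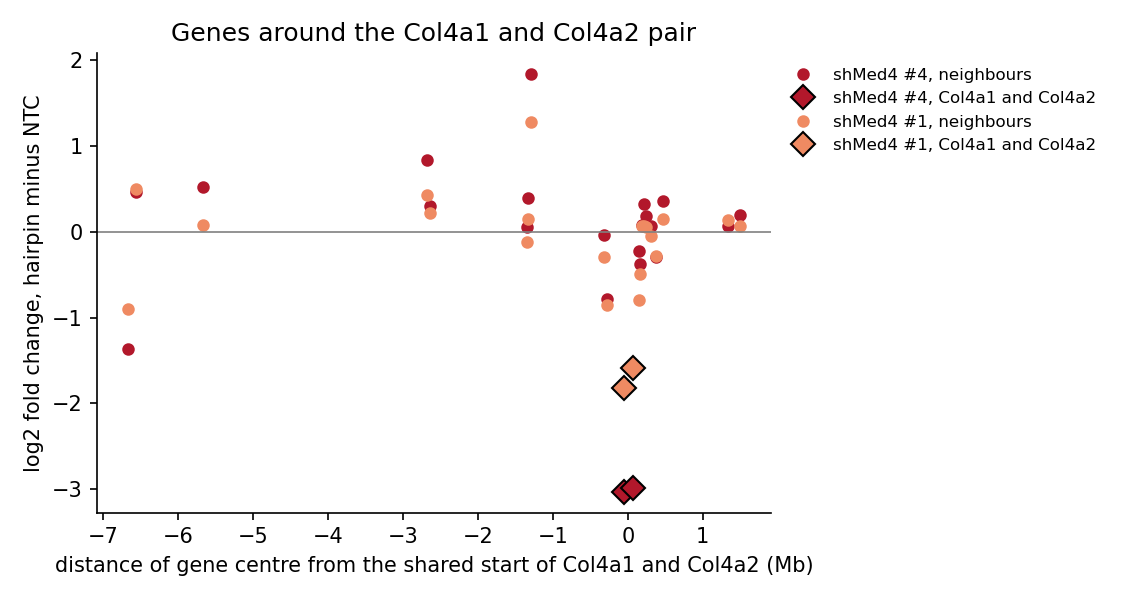
Log2 fold change against NTC (vertical axis) of the 20 nearest tested genes that do not overlap the pair (circles) and of Col4a1 and Col4a2 (diamonds) by the distance of the gene's centre from the shared start of the pair (horizontal axis, Mb), for shMed4 #4 (dark) and shMed4 #1 (light). The pair lies at -3.03 and -2.98 with shMed4 #4 and at -1.82 and -1.58 with shMed4 #1, below the neighbours, whose lowest values were -1.37 and -0.90.

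Likeness of a gene's profile to that of Col4a1 over the 9 libraries was taken as the root mean square difference of log2 CPM after each gene was set to its own NTC mean, for the 11303 genes whose mean reached 5 CPM. By this measure, where a smaller value is more alike, Col4a2 had 0.144 and Col4a5 1.97. The 5 nearest genes outside the family were Tmsb4x, an actin monomer-binding protein (0.217), Dpep3, a dipeptidase (0.231), Cdh11, a cadherin of mesenchymal cells (0.243), Ephb2, an ephrin receptor (0.260), and Gm23849, annotated as a small nuclear RNA (0.280). Dpep3 and Cdh11 lie on chromosome 8, and the others on chromosomes X, 4 and 11. Their log2 fold changes ran from -3.49 to -2.77 with shMed4 #4 and from -1.74 to -1.46 with shMed4 #1. These genes were picked for their likeness, so no test applies to them.

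Genes of the pathway that folds, exports, anchors and degrades type IV collagen were taken from 6 lists with 116 genes, of which 91 were tested. Over all genes tested, 14.2% were higher and 13.9% lower with shMed4 #4 than with shMed4 #1. Of the pathway genes with shMed4 #4, 42 rose and 17 fell against NTC, 64.8% of those tested, against 55.1% of all genes. With shMed4 #1, 44 rose and 15 fell, also 64.8%, against 41.6% of all genes. Between the hairpins, 32 were higher and 18 lower with shMed4 #4, 54.9% against 28.0% of all genes. All counts are from edgeR's quasi-likelihood test with adjusted p under 0.05 over all genes tested. The median log2 fold change of the 91 genes was 0.15 for shMed4 #4 and 0.13 for shMed4 #1 against NTC, and -0.01 for all genes in each.

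Of 15 tested genes for folding and modifying collagen, 10 rose with shMed4 #4 and the other 5 did not pass the test, while 9 rose and 2 fell with shMed4 #1. Calls made up 66.7% with shMed4 #4, against 55.1% of all genes, and 73.3% with shMed4 #1, against 41.6%. The collagen chaperone Serpinh1 averaged 4177 ± 177 CPM with shMed4 #4, 3285 ± 89 CPM with shMed4 #1 and 2064 ± 25 CPM in NTC cells (SD, n = 3 each). It rose by 1.02 on the log2 scale with shMed4 #4 (SE 0.05, edgeR adjusted p = 5.23e-20) and by 0.67 with shMed4 #1 (SE 0.05, edgeR adjusted p = 2.56e-14). P3h4, a partner of the collagen lysyl hydroxylases, rose by 3.40 with shMed4 #4 (SE 0.12, edgeR adjusted p = 8.86e-24) and 2.87 with shMed4 #1 (SE 0.13, edgeR adjusted p = 3.03e-20). Of 16 tested genes for export of procollagen from the endoplasmic reticulum, 10 rose and 2 fell with shMed4 #4, and 8 rose and 1 fell with shMed4 #1. The coat proteins Sec31a and Sec13 rose by 0.65 and 0.64 with shMed4 #4, and by 0.42 and 0.40 with shMed4 #1. Preb, which activates the coat's GTPase, fell by 0.22 with shMed4 #4 and 0.19 with shMed4 #1; its call was lost with shMed4 #4 without shMed4 #4 library 2 (-0.15), and with shMed4 #1 without NTC library 3 or shMed4 #1 library 1 (-0.16 each). Preb shares 21.8% of its exon length with Abhd1 on the other strand. The transmembrane cargo receptor Mia3 had log2 fold changes of 0.19 with shMed4 #4 (SE 0.05, edgeR adjusted p = 0.00176) and 0.10 with shMed4 #1 (SE 0.05, edgeR adjusted p = 0.126).

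Of 18 tested partners of type IV collagen in the basement membrane, 5 rose and 3 fell with shMed4 #4, and 10 rose and 2 fell with shMed4 #1. Those called were 44.4% with shMed4 #4, below the 55.1% of all genes, and 66.7% with shMed4 #1, against 41.6% of all genes. The fibulins Fbln1 and Fbln2 rose by 1.20 and 0.91 with shMed4 #4 and by 0.64 and 0.51 with shMed4 #1. Lamb2, a laminin beta chain, fell by 0.57 with shMed4 #4 and 0.19 with shMed4 #1, and Tinagl1, a matrix protein related to tubulointerstitial nephritis antigen, fell by 0.39 with shMed4 #4 and 0.21 with shMed4 #1. The call of Lamb2 with shMed4 #1 was lost in DESeq2 (-0.19) and without NTC library 2 or 3 or shMed4 #1 library 1 or 2 (-0.12 to -0.18). The laminin gamma chain Lamc1 rose by 0.56 with shMed4 #4 and 0.64 with shMed4 #1, while the beta chain Lamb1 had log2 fold changes of 0.05 with shMed4 #4 (SE 0.05, edgeR adjusted p = 0.427) and -0.12 with shMed4 #1 (SE 0.05, edgeR adjusted p = 0.0703); Lamb1 passed the test with shMed4 #1 under upper-quartile factors and without NTC library 3 or shMed4 #1 library 1 (-0.15, -0.16 and -0.13). Hspg2, which encodes perlecan, rose by 0.30 with shMed4 #4 and 0.41 with shMed4 #1. Pxdn, the peroxidase that crosslinks type IV collagen, had 0.11 with shMed4 #4 (SE 0.06, edgeR adjusted p = 0.0972) and 0.24 with shMed4 #1 (SE 0.06, edgeR adjusted p = 0.000502), and it passed with shMed4 #4 without shMed4 #4 library 1 or 3 (0.15 each). Nid1, which bridges laminin and type IV collagen, averaged 0.14 CPM over all libraries and was not tested.

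Of 9 tested receptors, 4 rose and 3 fell with shMed4 #4, and 4 rose and 2 fell with shMed4 #1. Calls made up 77.8% with shMed4 #4, against 55.1% of all genes, and 66.7% with shMed4 #1, against 41.6%. Itga1, an integrin subunit that binds type IV collagen, averaged 36.1 ± 1.1 CPM with shMed4 #4, 56.8 ± 3.7 CPM with shMed4 #1 and 69.5 ± 5.3 CPM in NTC cells (SD, n = 3 each). It fell by 0.94 on the log2 scale with shMed4 #4 (SE 0.07, edgeR adjusted p = 1.45e-13) and by 0.29 with shMed4 #1 (SE 0.07, edgeR adjusted p = 0.000804), whereas its partner subunit Itgb1 rose by 0.88 with shMed4 #4 and 0.72 with shMed4 #1. The integrin subunit Itgb3 rose by 2.99 with shMed4 #4 and 2.63 with shMed4 #1, Adgrg6, an adhesion receptor for type IV collagen, rose by 2.48 with shMed4 #4 and 2.04 with shMed4 #1, and Itgav fell by 0.42 with shMed4 #4 and 0.20 with shMed4 #1, its call with shMed4 #1 being lost without NTC library 1 (-0.16). The collagen receptor kinase Ddr1 had log2 fold changes of -0.08 with shMed4 #4 (SE 0.06, edgeR adjusted p = 0.256) and 0.10 with shMed4 #1 (SE 0.06, edgeR adjusted p = 0.202), and Ddr2 rose by 0.17 with either hairpin. Itga2 averaged 0.46 CPM and was not tested.

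Among 14 tested proteases and inhibitors, 9 rose and 4 fell with shMed4 #4, and 9 rose and 3 fell with shMed4 #1. Calls made up 92.9% with shMed4 #4, against 55.1% of all genes, and 85.7% with shMed4 #1, against 41.6%. Mmp2, a gelatinase that cleaves type IV collagen, rose by 3.59 with shMed4 #4 and 2.62 with shMed4 #1, at a low level of 5.21 ± 1.0 CPM with shMed4 #4, 2.64 ± 0.58 CPM with shMed4 #1 and 0.418 ± 0.07 CPM in NTC cells (SD, n = 3 each). The related Mmp9 rose by 0.35 with shMed4 #4 and 0.51 with shMed4 #1. The stromelysins Mmp3 and Mmp10 had log2 fold changes of -1.75 and -0.63 with shMed4 #4 and of -1.81 and -1.09 with shMed4 #1, all past the test. The inhibitor Timp3 rose by 1.47 with shMed4 #4 and 1.29 with shMed4 #1, with 21.3% of its exon length shared with Syn3 on the other strand, and Plat, the tissue plasminogen activator, rose by 1.10 with shMed4 #4 and 1.58 with shMed4 #1. Of 19 tested factors linked to transcription of type IV collagen genes, 4 rose and 5 fell with each hairpin. That was 47.4% with each, below the 55.1% of all genes with shMed4 #4 and above the 41.6% with shMed4 #1. Tgfb2 and Tgfb1, ligands known to raise matrix genes, rose by 1.04 and 0.63 with shMed4 #4 and by 1.41 and 0.30 with shMed4 #1. Smad7, an inhibitor of that pathway, fell by 0.46 with shMed4 #4 and 0.57 with shMed4 #1, and the transcription factor Klf6 fell by 0.39 with shMed4 #4 and 0.51 with shMed4 #1. Tgfb3, a ligand of the same family, fell by 0.35 with shMed4 #4 and rose by 0.27 with shMed4 #1. Smad2, Smad3 and Ccn2 passed the test with neither hairpin, and Smad4 was lower with shMed4 #1 only (-0.25).

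**Figure D5:**
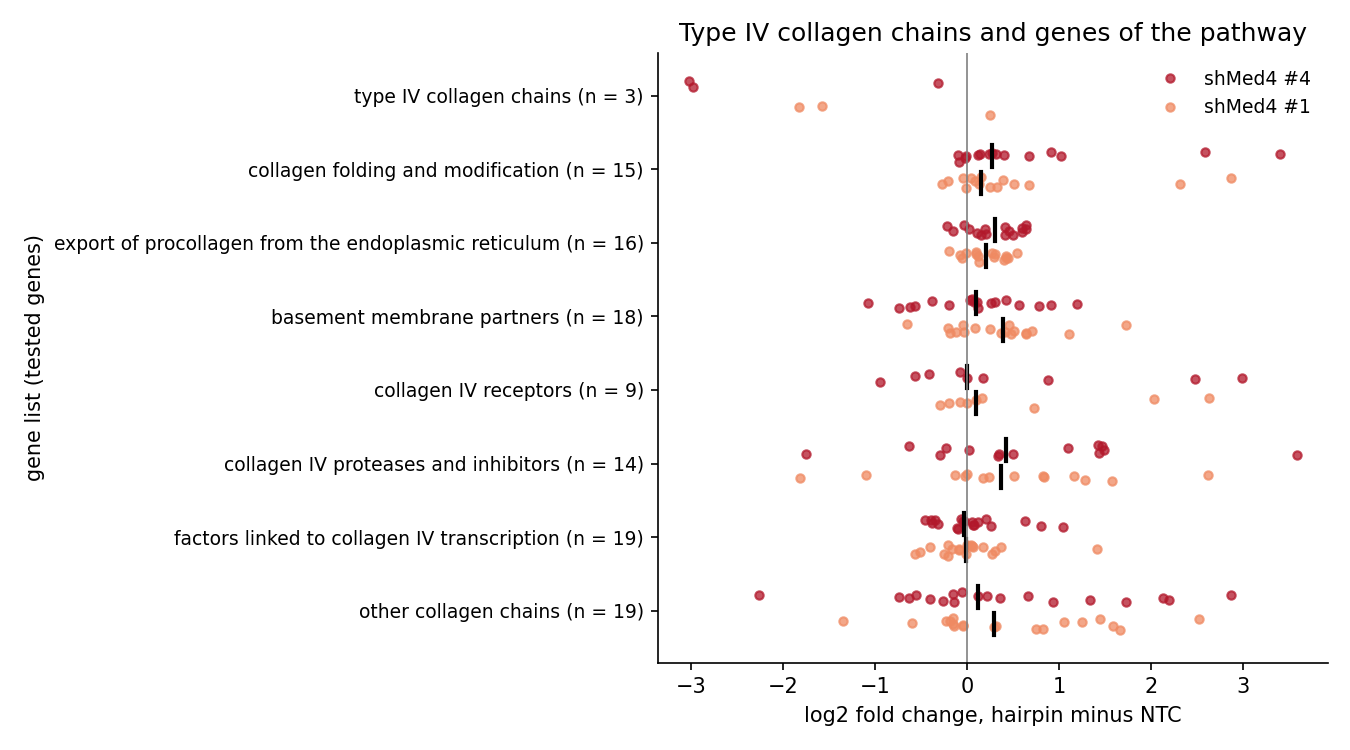
Log2 fold change against NTC (horizontal axis) of each tested gene in the type IV collagen family, the 6 pathway lists and the other collagens (rows), with shMed4 #4 above shMed4 #1 in each row; points are genes and the black bars are medians of the lists. Col4a1 and Col4a2 lie at -3.03 and -2.98 with shMed4 #4, while the medians of the pathway lists lie between -0.04 and 0.43.

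Other collagens moved in both directions. Of 38 such genes 19 were tested, and 9 rose and 7 fell with shMed4 #4, while 9 rose and 4 fell with shMed4 #1. Calls made up 84.2% of the 19 with shMed4 #4 and 68.4% with shMed4 #1. Among all genes tested, 27.8% rose and 27.3% fell with shMed4 #4, and 21.8% rose and 19.8% fell with shMed4 #1. The median log2 fold change of the 19 collagens was 0.12 with shMed4 #4 and 0.30 with shMed4 #1. The 7 that fell with shMed4 #4 were 4 without NTC library 2, without shMed4 #4 library 1 or at an adjusted p under 0.01. Col6a3, a chain of the beaded-filament collagen, averaged 541 ± 71 CPM with shMed4 #4, 425 ± 32 CPM with shMed4 #1 and 74.2 ± 7.3 CPM in NTC cells (SD, n = 3 each), a rise of 2.87 with shMed4 #4 and 2.52 with shMed4 #1. The fibril-associated Col12a1 rose by 2.20 with shMed4 #4 and 1.66 with shMed4 #1, and the fibrillar chain Col1a2 rose by 2.14 with shMed4 #4 and 1.44 with shMed4 #1. Col27a1, a fibrillar collagen of cartilage, fell by 2.27 with shMed4 #4 and 1.36 with shMed4 #1. Col20a1 fell by 0.63 with shMed4 #4 and 0.60 with shMed4 #1, and the fibrillar Col5a1 fell by 0.41 with shMed4 #4 and 0.23 with shMed4 #1. Among the 22 tested collagens, ranked per kilobase, Col4a1 stood 10th with shMed4 #4, 8th with shMed4 #1 and 2nd in NTC cells, and Col4a2 stood 12th with shMed4 #4, 11th with shMed4 #1 and 3rd in NTC cells. Col4a5 stood 9th with shMed4 #4, 10th with shMed4 #1 and 9th in NTC cells.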

How the data were processed

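RNA of D2A1-d cells was sequenced in 9 libraries. Per the submitters' processing notes, STAR, HTSeq and the mouse build mm10 (GRCm38) were used; no source used here gives their versions, the annotation or how strand was handled. What the authors deposited are raw counts of reads per gene. The 5 summary lines that name no gene were left out: reads in no gene made up 49.5 to 51.6% of records, multiply aligned reads 10.5 to 11.6% and ambiguous reads 0.863 to 0.951%. Since strand is unknown, antisense reads are not told apart. Of 55335 identifiers, 55154 matched a symbol, and positions and exon lengths are from GENCODE M21 on GRCm38. The members, gene lists and tests were chosen with earlier results of these data known.

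CPM (with TMM factors of 0.969 to 1.03) and RPKM (CPM per kilobase of exon) were computed from the counts. The filterByExpr filter (minimum count 10) left 14335 genes, which were fitted in 1 model of 3 groups with edgeR 4.0.16 (R 4.3.3) by quasi-likelihood, with Benjamini-Hochberg adjustment over all of them and a threshold of 0.05; the common biological coefficient of variation was 0.0433. No p is given for the chains or their ratio. Named genes were the 2 largest rises and falls of each list (3 for collagens) called with both hairpins at a mean of at least 5 CPM, and a set of known partners. Alternatives were DESeq2 1.42.0, limma-voom (limma 3.58.1), other size factors, other filters, a stricter threshold, the replicate block and leaving out each library. Libraries of a group differed by more than counting error, with a chi-square of 1.53 to 2.95 per degree of freedom. The steps were tested on simulated counts.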

Additional observations from a re-analysis of the deposited data

Results flagged for a closer look

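Col4a5 was below all 3 NTC libraries in all 3 shMed4 #4 libraries and above all 3 NTC libraries in all 3 shMed4 #1 libraries. Its log2 difference was -0.56 for shMed4 #4 minus shMed4 #1. For scale, every shMed4 #4 library was below every NTC library for 29.8% of all genes tested. Every shMed4 #1 library was above every NTC library for 25.2% of all genes tested. The share of genes with both patterns was not counted. Whether the effects of the hairpins on Col4a5 differ was not tested, because the gene was chosen with these contrasts known.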

How the results depend on the processing

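The log2 fold changes of Col4a1, Col4a2 and Col4a5 kept their direction under every alternative that was run. Without 1 library, Col4a1 ran from -3.07 to -2.98 with shMed4 #4 and from -1.84 to -1.82 with shMed4 #1, Col4a2 from -3.01 to -2.95 with shMed4 #4 and from -1.60 to -1.56 with shMed4 #1, and Col4a5 from -0.33 to -0.28 with shMed4 #4 and from 0.23 to 0.26 with shMed4 #1. With upper-quartile factors Col4a5 was at -0.36 with shMed4 #4 and 0.21 with shMed4 #1. The labels do not tie replicate numbers to a shared day, and deviations of libraries with the same number correlated between -0.059 and 0.035 over 9 pairs, with 3 of 9 libraries most like their own number. With the replicate block Col4a1 was at -3.03, -1.82 and -1.20 for shMed4 #4 minus NTC, shMed4 #1 minus NTC and shMed4 #4 minus shMed4 #1, and Col4a5 at -0.32, 0.24 and -0.56. Other collagens that fell with shMed4 #4 numbered 4 at an adjusted p under 0.01 and 4 to 7 without 1 library, against 7 (4 without NTC library 2 or shMed4 #4 library 1). Neighbours that fell numbered 1 with each hairpin in DESeq2, and without 1 library 1 to 2 with shMed4 #4 and 1 to 3 with shMed4 #1, against 2 and 3; the cause was not tested. Among single named genes, 5 calls were lost and 1 gained under settings that kept all libraries. Depth limits Col4a3, Col4a4 and Col4a6.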
